A study of Mus musculus with 4 samples.

Results

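The genes described here build the actin cytoskeleton and the focal adhesions, the sites where a cell's actin bundles hold on to the matrix. A list of 59 such genes was read in Py-4-1 cells, a mouse cell line grown from a hemangioendothelioma, which is a vascular tumour. For each gene the probe set that the platform annotation gives to that symbol alone was used, and of several such probe sets the brightest by mean log2 value. This found 53 of the 59 genes, with 121 probe sets between them, among 12393 genes with a probe set of their own on the array. Ptk2, Nedd9, Arpc3, Actr2 and Rock2 had no probe set under their symbol in the annotation used here. Arpc1b had 2, both shared with another gene, and is not reported.

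The study compared 2 groups on 4 one-colour Affymetrix arrays, 1 array for each clone. The controls were 2 clones transfected with the plasmid pcDNA, and the others were 2 clones transfected with pcDNA/Prox1, which the labels describe as stably expressing Prox1, the homeobox factor of lymphatic endothelium. All 4 clones are of the same cell line, and the labels give no passage, selection or culture time. Each clone stands for 1 line of cells, so clonal differences and differences in growth, RNA or hybridisation cannot be told apart within a group. In the text below, pairs of intensities are always given in the order of clone 1 and clone 2 of each group.

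Actin monomers join into filaments, which the Arp2/3 complex branches, Ena/VASP proteins lengthen, cofilins sever and tropomyosins coat. Focal adhesions couple these filaments to integrins through talin, vinculin and a layer of adaptor proteins, and kinases such as Src signal from them. In endothelial cells this machinery is known for its part in migration, barrier function and the response to flow, and the title of the series concerns invasion.

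The single probe set of Prox1 did not separate the groups: it read 52.1 and 60.5 for the controls and 62.4 and 44.3 for the Prox1-labelled pair (log2 change -0.047 ± 0.20, SE of the limma fit without a filter, adjusted p = 0.963). In 3 of these 4 arrays it lay under the highest of 27 Bacillus controls. These are array probe sets for bacterial sequence that serve here as a background level. The highest of them read 45.3 in control clone 1, where Prox1 exceeded it, and from 88.4 to 100.7 in the other arrays. Whether the Prox1 probe set lies within the transfected sequence is not given in the sources used here. Its values therefore do not show whether the transfected Prox1 was expressed. The groups below are those of the labels. Of 12 endothelial markers 9 exceeded those controls in all 4 arrays, while Cldn5, Erg and Vwf did not. The summed intensity of the endothelial markers was 26823 and 33850 for the controls and 37238 and 34765 for the Prox1-labelled pair, lowest in control clone 1. Of the mural and smooth muscle markers 5 of 9 exceeded the Bacillus controls in every array (summed range 2118 to 2653 in the control clones, 1861 to 1877 in the others), but Myh11, Cnn1 and Pdgfrb did so in none and Tagln in 1. Of the fibroblast markers 2 of 7 did, of the epithelial markers 2 of 7, of the leukocyte markers 3 of 6 and of the skeletal and cardiac muscle markers 0 of 8. The ratio of the 3' to the 5' actin control probe set, a measure of RNA integrity and labelling, ran from 1.29 to 1.44 over the 4 arrays, with the Prox1-labelled clones at both ends.

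Many actin genes are known to be driven by serum response factor, whose cofactors sense the pool of free actin monomers and which binds a DNA element called the CArG box. The box was searched in RefSeq promoter windows (build GRCm38.p6, 250 bases before to 50 bases after each gene's start, no mismatch allowed, a pattern that reads alike on both strands), and 52 of the 59 genes matched the table. A box stood in the window of 6 of these 52 genes (11.5%), against 488 of all 27025 genes (1.81%). The members were listed as actin and adhesion genes, and many actin genes are known targets of this factor. The higher share is therefore not independent of how the list was chosen. The 52 genes had 70 windows and the 27025 genes 32851, and a gene with more windows has more places for a box. The stretches around the 6 boxes are shown with the box in capitals, each 5′ to 3′ on the strand of the gene and ending before its start.
Actg1, chr11:120348556-120348605, minus strand: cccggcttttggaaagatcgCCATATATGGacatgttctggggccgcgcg
Vcl, chr14:20929151-20929200, plus strand: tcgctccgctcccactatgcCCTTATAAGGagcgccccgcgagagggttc
Fermt2, chr14:45530240-45530289, minus strand: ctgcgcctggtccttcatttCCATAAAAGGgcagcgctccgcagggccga
Cnn2, chr10:79988524-79988573, plus strand: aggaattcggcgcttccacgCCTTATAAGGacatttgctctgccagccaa
Myl6, chr10:128493030-128493079, minus strand: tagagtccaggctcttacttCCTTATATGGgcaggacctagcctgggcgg
Myl9, chr2:156775283-156775332, plus strand: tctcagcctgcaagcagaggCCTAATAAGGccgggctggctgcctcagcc
The first base of the box lay 90 bases before the start of Actg1, 227 before that of Vcl, 204 before that of Fermt2, 56 before that of Cnn2, 50 before that of Myl6 and 161 before that of Myl9. These are matches of letters and not shown sites. Myl9 lay under the highest Bacillus control in all 4 arrays, so no direction is given for it. The other 5 genes did not share a direction: Cnn2 (0.64) and Vcl (0.26) had a positive log2 change and Actg1 (-0.27), Myl6 (-0.17) and Fermt2 (-0.10) a negative one. None of the 5 passed the threshold, and Fermt2 changed sign on leaving out control clone 2 or Prox1-labelled clone 2.

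Between the groups, 0 of the 48 members bright enough to test passed the threshold, an adjusted p of 0.05 in a limma fit over all 11656 probe sets tested, and the lowest adjusted p of a member was 0.233 (Vim). In the same fit 12 probe sets passed (0.103%), 11 of them higher (0.0944%) and 1 lower (0.00858%). At an unadjusted p under 0.05 there were 4 higher members, Vim, Parva, Vasp and Ablim1, and 1 lower member, Ezr, while among all probe sets tested 8.65% were higher and 5.88% lower by that measure. The clones of the groups did not overlap for 18 members with higher and 8 with lower intensities in the Prox1-labelled clones, beside 23.9% and 22.3% of all probe sets tested. Over the 48 members 33 log2 changes were positive, with a median of 0.17, and over all probe sets tested 51.5% were positive, with a median of 0.012. Over all 53 members with a probe set, dim ones included, 35 were positive and 18 negative.

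**Figure D1:**
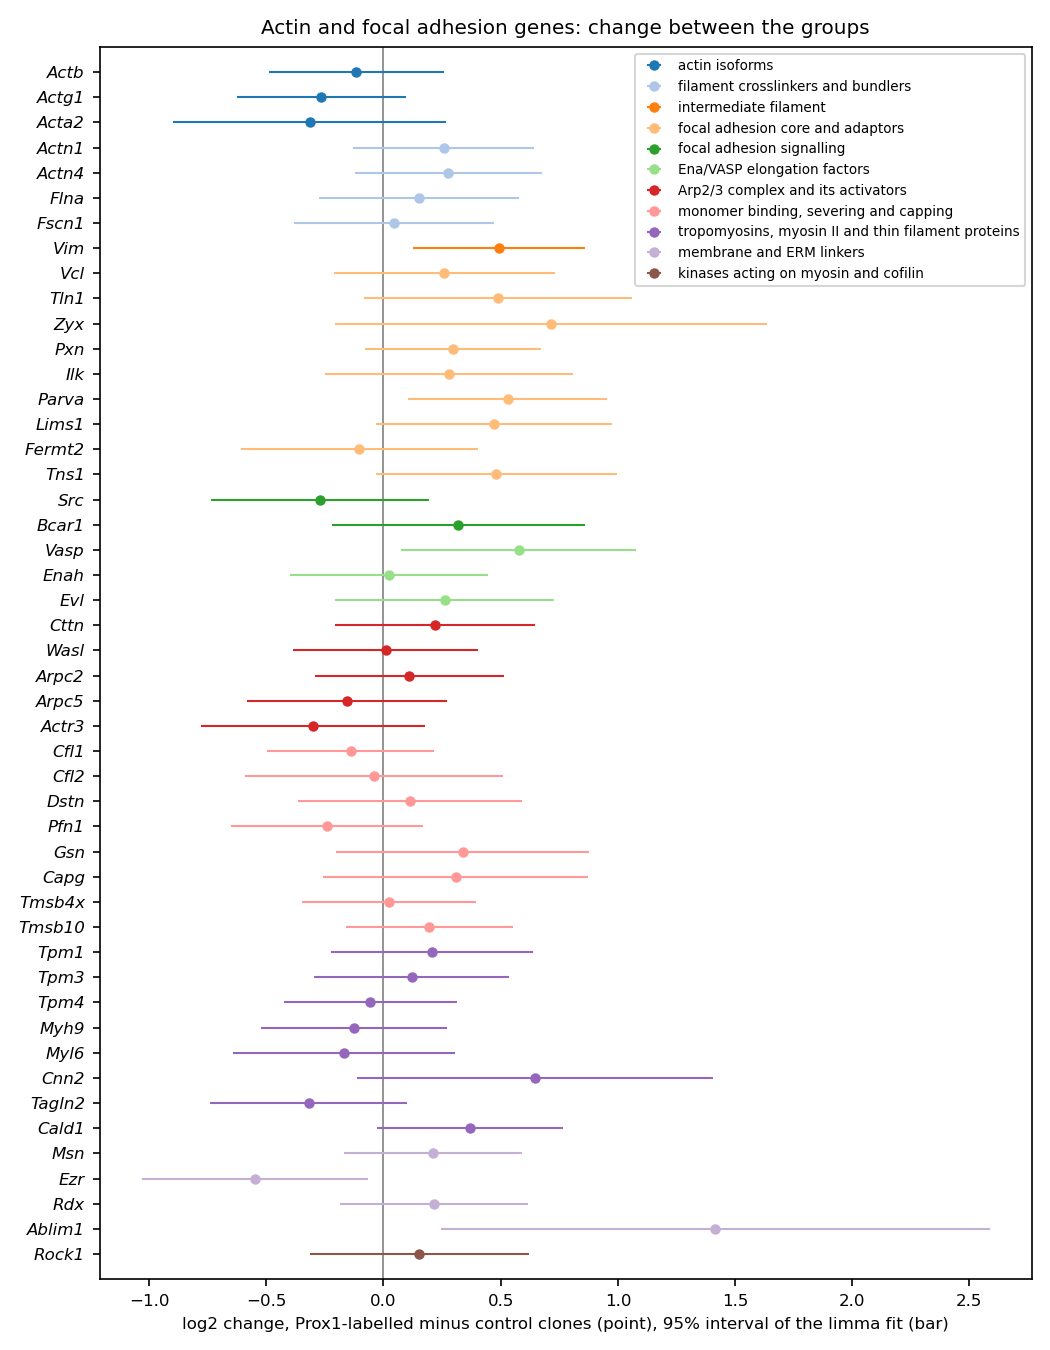
Log2 change of each of the 48 members tested (horizontal axis, Prox1-labelled minus control clones, on the log2(intensity + 47) scale) with the 95% interval of the limma fit as a bar, coloured by the role of the gene. The intervals of 5 members exclude 0 before any adjustment for the number of tests, those of Vim, Parva, Vasp, Ablim1 and Ezr, and the 3 actins all lie to the left of 0.

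The precision set what could be seen, and in bulk RNA fewer cells with a transcript and less of it per cell cannot be told apart. The 95% interval of a member's log2 change reached 0.43 to either side in the median, from 0.36 at the narrowest to 1.17 at the widest, and for 42 of the 48 members it lay wholly between a 2-fold fall and a 2-fold rise. Log2 changes here are on the scale log2(intensity + 47), which understates those of dim probe sets. Errors given with ± are standard errors of this fit, adjusted p-values are from limma with Benjamini-Hochberg adjustment, and each group had 2 clones.

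The actin isoforms themselves had lower group means in the Prox1-labelled clones, without passing the test. Actg1, the cytoplasmic gamma actin, read 13534 and 11739.6 for the controls and 10432 and 10522 for the Prox1-labelled pair (log2 change -0.27 ± 0.16, adjusted p = 0.485). Its groups did not overlap, and the Prox1-labelled clones lay close together. Actb, the cytoplasmic beta actin, went from 15817 and 13969 to 12612 and 14909 (log2 change -0.12 ± 0.16, adjusted p = 0.802), and the groups overlapped. Acta2, the smooth muscle alpha actin, read 239 and 408 for the controls and 226 and 261 for the Prox1-labelled pair (log2 change -0.32 ± 0.26, adjusted p = 0.629), with control clone 2 alone standing high. The summed mural and smooth muscle markers were also highest in control clone 2, but the order of the other clones differed. Acta2 was lowest in Prox1-labelled clone 1 and the sum in Prox1-labelled clone 2. Most of the sum was Mcam, with 1366.5 and 1787 for the controls and 1175 and 1201 for the Prox1-labelled pair. The part of these markers in the Acta2 values was not tested. The 3 actin log2 changes were negative under quantile normalization and median centring too. Actin isoforms are nearly identical in their coding sequence, and the probe sets of Actg1 and Acta2 are of a kind (suffix _s_at) that can match several transcripts.

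Beta actin was also read by 3 Affymetrix control probe sets that were not part of the test. The one nearest the 3' end read 12939 and 12584 for the controls and 9555 and 11189 for the Prox1-labelled pair, and the middle one 8712 and 8845 against 6477 and 8068. At all 3 positions both Prox1-labelled clones lay under both control clones, with log2 changes of -0.30, -0.28 and -0.30 from the 3' end to the 5' end. A dimmer probe set of Actb went the other way, with 879 and 523 for the controls and 1161 and 932 for the Prox1-labelled pair (0.58, adjusted p = 0.344), so the probe sets of this gene did not give 1 direction.

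Crosslinking and bundling proteins tie actin filaments into networks and cables, and log2 changes were positive for 4 of 4, at a median of 0.20. Actn1, the alpha-actinin of stress fibres and adhesions, read 2588 and 2593 for the controls and 3175 and 3036 for the Prox1-labelled pair (log2 change 0.26 ± 0.17, adjusted p = 0.536), and Actn4, its close relative, went from 4486 and 4970.5 to 6272 and 5239 (log2 change 0.28 ± 0.18, adjusted p = 0.518). Neither gene's groups overlapped. The other probe sets of Actn1 gave 0.50 (adjusted p = 0.310) and 0.79 (adjusted p = 0.211), and these depended more on the control clone. Against control clones 1 and 2 the former changed by 0.64 and 0.36 and the latter by 1.11 and 0.48. The crosslinker filamin A (Flna, log2 change 0.15 ± 0.19, adjusted p = 0.771) and the bundling protein fascin (Fscn1, log2 change 0.045 ± 0.19, adjusted p = 0.942), which packs filaments into filopodia, overlapped between the groups.

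Vim, which encodes vimentin, the intermediate filament protein of endothelial and mesenchymal cells, had the lowest adjusted p of the members. Its intensities were 12881 and 13698 for the controls and 20569 and 17009.5 for the Prox1-labelled pair, a change of 1.41-fold (log2 change 0.49 ± 0.16, adjusted p = 0.233). Both Prox1-labelled clones exceeded both control clones, which lay close together, so that the change was alike against either control clone (0.54 and 0.45). Its other probe sets gave 0.57 and 0.18 and depended more on the control clone. Against control clones 1 and 2 the former changed by 0.87 and 0.27. The latter changed by 0.38 and -0.015, and its groups overlapped. With control clone 2 left out Vim passed the threshold (adjusted p = 0.0297), and with control clone 1 left out it did not (adjusted p = 0.116). Its adjusted p ran from 0.0297 to 1.00 over all alternatives.

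The core of the focal adhesion had 9 members tested, 8 of them with log2 changes above 0 (median 0.47), and 0 passed the threshold. The intensities of 5 of these members did not overlap between the groups, all of them higher in the Prox1-labelled clones, beside 23.9% of all probe sets tested. Parva, which encodes alpha-parvin, the actin-binding partner of integrin-linked kinase, read 621 and 582 for the controls and 925 and 853 for the Prox1-labelled pair (log2 change 0.53 ± 0.19, adjusted p = 0.255). Both control clones lay close together, and the change against each of them was 0.49 and 0.57. Its other probe set gave 0.47.

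Alpha-parvin works in a complex with integrin-linked kinase (Ilk) and the LIM-domain adaptor PINCH-1 (Lims1). Lims1 went from 1428 and 2164 to 2428 and 2488 (log2 change 0.47 ± 0.22, adjusted p = 0.368), with control clone 1 alone well below the others. All 3 of its probe sets were positive, with the others at 0.66 and 0.62. Ilk read 409 and 559 for the controls and 693 and 503 for the Prox1-labelled pair (log2 change 0.28 ± 0.23, adjusted p = 0.638), and Prox1-labelled clone 2 lay between the control clones. Parvb, the beta-parvin gene, was below the filter and went from 136 and 139 to 134 and 119 (-0.088).

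Talin (Tln1) links integrins to actin, and vinculin (Vcl) strengthens that link under tension. Tln1 went from 407 and 704 to 789 and 758 (log2 change 0.49 ± 0.25, adjusted p = 0.413). Vcl went from 2257 and 2926 to 3506 and 2718 (log2 change 0.26 ± 0.21, adjusted p = 0.623) and overlapped between the groups. Kindlin-2 (Fermt2), which activates integrins together with talin, was the 1 member of the core tested with a negative log2 change, from 1266 and 1769.8 to 1563 and 1237 (log2 change -0.10 ± 0.22, adjusted p = 0.875).

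The adaptors on the cytoplasmic side included paxillin (Pxn), tensin 1 (Tns1) and zyxin (Zyx). Pxn read 3888 and 4043 for the controls and 4728 and 5029 for the Prox1-labelled pair (log2 change 0.30 ± 0.17, adjusted p = 0.455), and the control clones differed from each other by less than the groups did. Its other probe sets were positive too, at 0.33 and 0.19. Tns1 went from 214 and 318 to 373 and 395 (log2 change 0.48 ± 0.23, adjusted p = 0.370), but its dimmer probe set stood at -0.012, so its direction is not settled. Zyx, a sensor of tension on actin bundles, had the largest log2 change of the core and the largest error, from 933 and 2584 to 2068 and 3227 (log2 change 0.71 ± 0.41, adjusted p = 0.463), with control clone 1 far below the other 3 clones. Tgfb1i1, a paralogue of paxillin also called Hic-5, lay under the Bacillus controls in all 4 arrays and was not tested.

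The signalling proteins of the adhesion were read by 2 members, which went opposite ways. Src, the tyrosine kinase that phosphorylates paxillin and p130Cas, went from 419.8 and 446 to 312 and 394 (log2 change -0.27 ± 0.20, adjusted p = 0.597), with both Prox1-labelled clones below both control clones. Its other probe set gave -0.37. Bcar1, which encodes p130Cas, went from 976 and 1341 to 1722 and 1202 (log2 change 0.32 ± 0.24, adjusted p = 0.591) and overlapped between the groups.

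Ena/VASP proteins extend filaments at the leading edge and at adhesions, to which zyxin recruits them. Vasp read 863 and 1281 for the controls and 1550.3 and 1637 for the Prox1-labelled pair (log2 change 0.58 ± 0.22, adjusted p = 0.288), a change of 1.49-fold. The Prox1-labelled clones lay above both control clones and close together, while control clone 1 lay below control clone 2. Evl went from 299.6 and 368 to 382 and 435 (log2 change 0.26 ± 0.21, adjusted p = 0.615) without overlap. Enah, or Mena, stood at 0.022 on its brightest probe set (from 695 and 643 to 692 and 667, adjusted p = 0.973), which turned to -0.023 under median centring. A dimmer probe set read 286 and 297 for the controls and 476 and 521 for the Prox1-labelled pair (0.69, adjusted p = 0.188), without overlap.

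The Arp2/3 complex, which starts new branches on filaments, had 3 of 5 positive log2 changes among its members and activators, a median of 0.010 and 0 members past the threshold. Actr3, the Arp3 subunit, went from 4053 and 2829.6 to 2596 and 2894 (log2 change -0.30 ± 0.21, adjusted p = 0.561), with control clone 1 standing high, and its other probe sets stood at 0.065 and 0.0023. Arpc5 went from 1771 and 1738 to 1425 and 1730.4 (log2 change -0.16 ± 0.19, adjusted p = 0.766), with Prox1-labelled clone 1 alone standing low. Arpc2 gave 0.11 (adjusted p = 0.829). The branch stabiliser cortactin (Cttn) gave 0.22 (adjusted p = 0.650) and was positive on all 4 of its tested probe sets, up to 0.40. Wasl, or N-WASP, the activator of the complex downstream of Cdc42, read 2018 and 2083 for the controls and 2045 and 2085 for the Prox1-labelled pair (log2 change 0.010 ± 0.17, adjusted p = 0.989), with a 95% interval from -0.38 to 0.40, and turned negative under median centring.

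Proteins that bind monomers, sever or cap filaments were also mixed, 5 positive and 3 negative, with a median of 0.067 and 0 past the threshold. Pfn1, the monomer carrier profilin 1, went from 4204 and 4672 to 3407 and 4112 (log2 change -0.24 ± 0.18, adjusted p = 0.592), and cofilin 1 (Cfl1), the main severing protein, from 7638 and 7759 to 6907 and 7051 (log2 change -0.14 ± 0.16, adjusted p = 0.744). Both Prox1-labelled clones lay below both control clones for either gene, but the other tested probe set of Cfl1 stood at 0.059. Cofilin 2 (Cfl2, -0.040) and destrin (Dstn, 0.11) overlapped between the groups.

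The capping protein genes Gsn and Capg showed control clone 1 apart from the other 3 clones. Gsn, which encodes gelsolin, went from 581 and 935 to 953 and 937 (log2 change 0.34 ± 0.24, adjusted p = 0.565), and Capg from 1966 and 3407 to 3206 and 3227 (log2 change 0.31 ± 0.25, adjusted p = 0.627). Control clone 2 was thus at the level of the Prox1-labelled clones for both. Of the beta-thymosins, small peptides that sequester monomers, Tmsb4x read 16062 and 13198 for the controls and 15287 and 14297 for the Prox1-labelled pair (log2 change 0.022 ± 0.16, adjusted p = 0.969), with a 95% interval from -0.35 to 0.39, and turned negative under median centring. Tmsb10 went from 14567 and 13374 to 14981 and 17075 (log2 change 0.20 ± 0.16, adjusted p = 0.622), and its dimmer tested probe sets gave 0.60 (adjusted p = 0.269) and 0.31.

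Tropomyosins, myosin II and the proteins of the contractile filament split into 4 positive and 4 negative log2 changes, with a median of 0.032 and 0 past the threshold. Cald1, the caldesmon gene, whose product restrains myosin on actin, went from 6187 and 7358 to 8102 and 9405 (log2 change 0.37 ± 0.17, adjusted p = 0.373). Both Prox1-labelled clones exceeded both control clones, and its other probe sets gave 0.50 (adjusted p = 0.277) and 0.42. Cnn2, the calponin of non-muscle cells, read 592 and 1417 for the controls and 1501 and 1430.2 for the Prox1-labelled pair (log2 change 0.64 ± 0.34, adjusted p = 0.415). Control clone 1 alone stood low, and the change was 1.24 against it and 0.047 against control clone 2.

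Tagln2, a relative of the smooth muscle protein transgelin, had the lowest log2 change of this group, from 2012 and 2432 to 1758 and 1769 (log2 change -0.32 ± 0.19, adjusted p = 0.471). The Prox1-labelled clones nearly coincided and lay below both control clones. Its other probe set gave -0.23, but the groups overlapped there (536 and 1005.5 for the controls, 713 and 537 for the Prox1-labelled pair). That probe set changed by 0.19 against control clone 1 and by -0.66 against control clone 2. The heavy chain of non-muscle myosin IIA, Myh9, went from 6158 and 5125 to 4925 and 5369 (log2 change -0.13 ± 0.18, adjusted p = 0.797), and its 4 tested probe sets split into 2 positive and 2 negative ones, from -0.13 to 0.13. The light chain gene Myl6 gave -0.17 (adjusted p = 0.772), from 210 and 236 to 195 and 191. These intensities were little above the array medians (163 to 180) that set the filter. Myl9, the regulatory light chain of smooth muscle, was below the Bacillus controls in every array. The tropomyosin genes Tpm1 (0.21), Tpm3 (0.12) and Tpm4 (-0.056) had adjusted p-values from 0.679 to 0.912, and Tpm4 changed sign under quantile normalization. Tpm2 was below the filter and read 150.2 and 157 for the controls and 123 and 124 for the Prox1-labelled pair.

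The linkers between actin and the membrane held both the highest and the lowest log2 change of the members tested. Ablim1, an actin-binding LIM protein, read 284 and 1326 for the controls and 1754 and 1747 for the Prox1-labelled pair (log2 change 1.41 ± 0.52, adjusted p = 0.268). Its Prox1-labelled clones nearly coincided, control clone 2 lay below them and control clone 1 far below all, so that the change was 2.44 against control clone 1 and 0.39 against control clone 2. With control clone 2 left out it passed the threshold (adjusted p = 0.000318), and with control clone 1 left out it did not (adjusted p = 0.284). Its adjusted p ran from 0.000318 to 0.514 over all alternatives. Ezr, which encodes ezrin, went from 829 and 1139.7 to 616 and 687 (log2 change -0.55 ± 0.21, adjusted p = 0.290), with both Prox1-labelled clones below both control clones. Its dimmer probe set stood at -0.19, with Prox1-labelled clones of 271 and 251 between control clones of 390 and 236. The related linkers moesin (Msn, log2 change 0.21 ± 0.17, adjusted p = 0.620) and radixin (Rdx, log2 change 0.22 ± 0.18, adjusted p = 0.630) had the opposite sign to ezrin on all of their tested probe sets, 2 and 3, and their brightest probe sets did not overlap between the groups. Moesin went from 7294 and 6239 to 8076 and 7560.1 and radixin from 2805 and 3276 to 3643 and 3418. The dimmer probe set of moesin overlapped between the groups, from 4207 and 3285 to 4187 and 3810 (0.10). It changed by -0.074 against control clone 1 and by 0.28 against control clone 2.

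The kinases that act on myosin and cofilin were read by 2 members. Rock1, which promotes myosin contraction, went from 837 and 654 to 899 and 764 (log2 change 0.15 ± 0.21, adjusted p = 0.791), and its other tested probe sets stood at 0.48 (adjusted p = 0.345) and -0.34, so no direction is given. Limk1, the kinase that inactivates cofilin, was below the filter and read 157 and 138 for the controls and 87.7 and 89.3 for the Prox1-labelled pair (-0.52). Both Prox1-labelled clones lay below both control clones, but they also lay under the highest Bacillus control of their arrays (88.4 and 97.5).

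**Figure D2:**
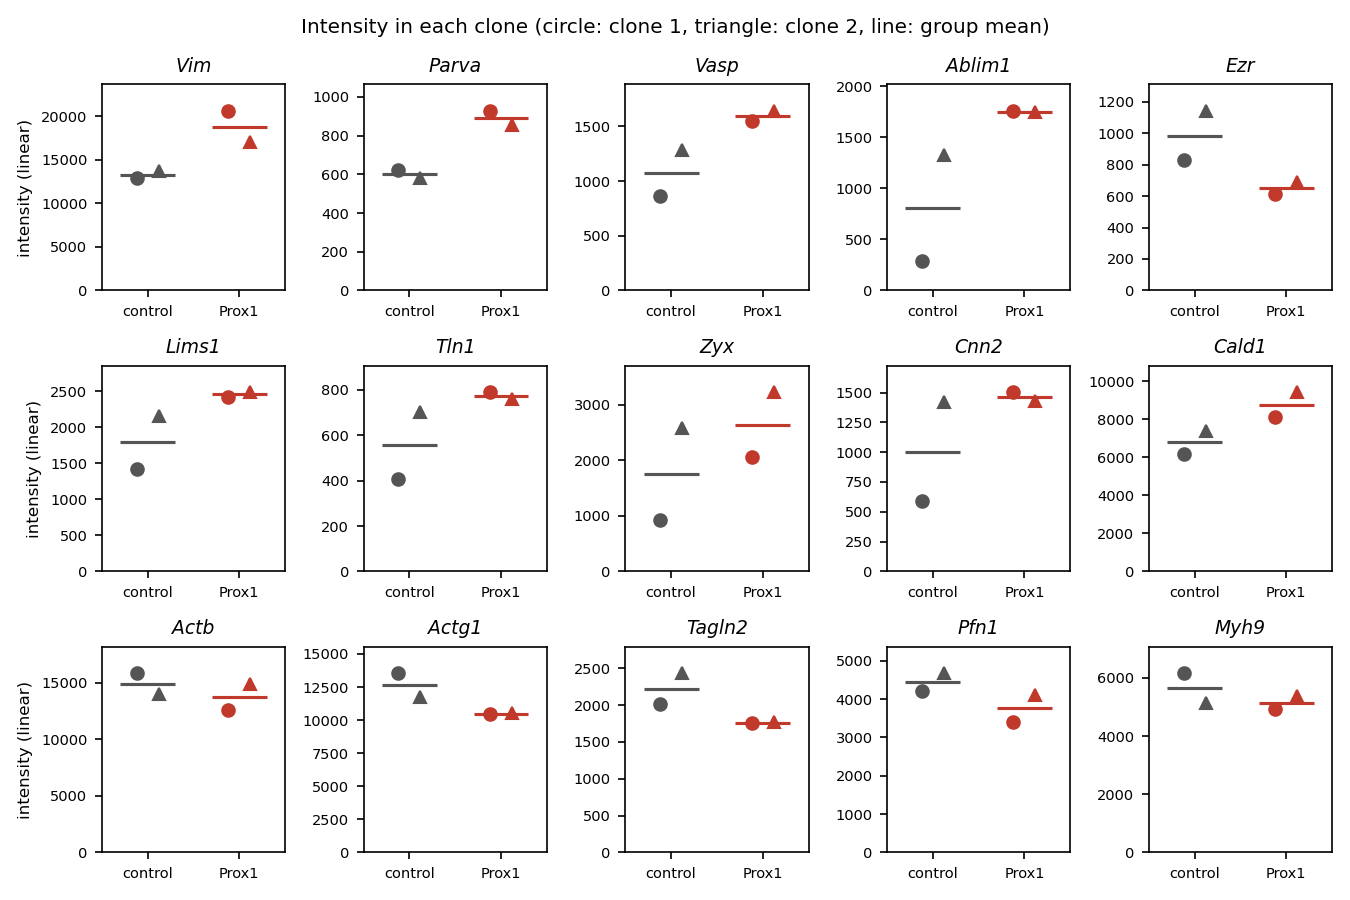
Intensity on a linear scale (vertical axis, starting at 0, 1 panel per gene) in each of the 4 clones, with circles for clone 1, triangles for clone 2 and a line at the group mean. Vim, Parva and Cald1 have both Prox1-labelled clones above both control clones, Tagln2 and Ezr have them below, and in Zyx, Cnn2 and Ablim1 control clone 1 stands far under control clone 2.

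A gap of at least 1.5-fold separated the control clones for 8 of the 48 members tested (16.7%), near the 14.5% of all probe sets tested. In control clone 2 31 members were higher than in control clone 1, beside 54% of all probe sets tested. The Prox1-labelled clones were that far apart for 1 member, Zyx, beside 4.34% of all probe sets tested. Control clone 1 was the lowest of the 4 arrays for 22 members, where 33.6% of all probe sets tested had their lowest value there. The summed endothelial markers were lowest in the same clone, and their part in the member values was not tested.

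Which control clone stood for the group mattered for the size of some changes. It mattered less for the members as a set. Against control clone 1 alone 30 of the 48 members were higher in the Prox1-labelled clones, with a median of 0.13. Of all 11656 probe sets tested 6166 were, with a median of 0.027. Against control clone 2 alone 32 members were higher, with a median of 0.088, beside 5640 of all probe sets tested, with a median of -0.013. For the core of the focal adhesion the median was 0.49 against control clone 1 and 0.13 against control clone 2. The changes of Zyx (1.43 and 0.00037), Cnn2 (1.24 and 0.047), Gsn (0.66 and 0.015) and Tln1 (0.85 and 0.13) were mostly or wholly against clone 1. All of these were still positive against both. The brightest probe sets of Vim, Parva, Actn1 (0.26 and 0.26), Pxn (0.32 and 0.27) and Cald1 (0.49 and 0.25) were positive against both with smaller gaps. Those of Ezr (-0.33 and -0.77), Tagln2 (-0.19 and -0.45), Src (-0.23 and -0.31) and Pfn1 (-0.17 and -0.32) were negative against both. Other members, such as Vasp (0.85 and 0.30) and Lims1 (0.76 and 0.18), also kept their sign. Among the members just named, a dimmer tested probe set changed sign between the control clones for Vim (0.38 and -0.015), Ezr (-0.51 and 0.12) and Tagln2 (0.19 and -0.66). Dimmer probe sets of other members did so too, such as those of Actr3 (-0.31 and 0.44), Cfl1 (0.39 and -0.27) and Tpm3 (0.55 and -0.15).

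Leaving out control clone 2 raised the count of members past the threshold from 0 to 8, all higher in the Prox1-labelled clones: Ablim1, Capg, Cnn2, Lims1, Tln1, Vasp, Vim and Zyx. In that fit 9.87% of all probe sets tested passed, 6.34% as higher, and the p-values hold no spread between control clones. Leaving out control clone 1 gave 0 members, as did leaving out either Prox1-labelled clone.

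**Figure D3:**
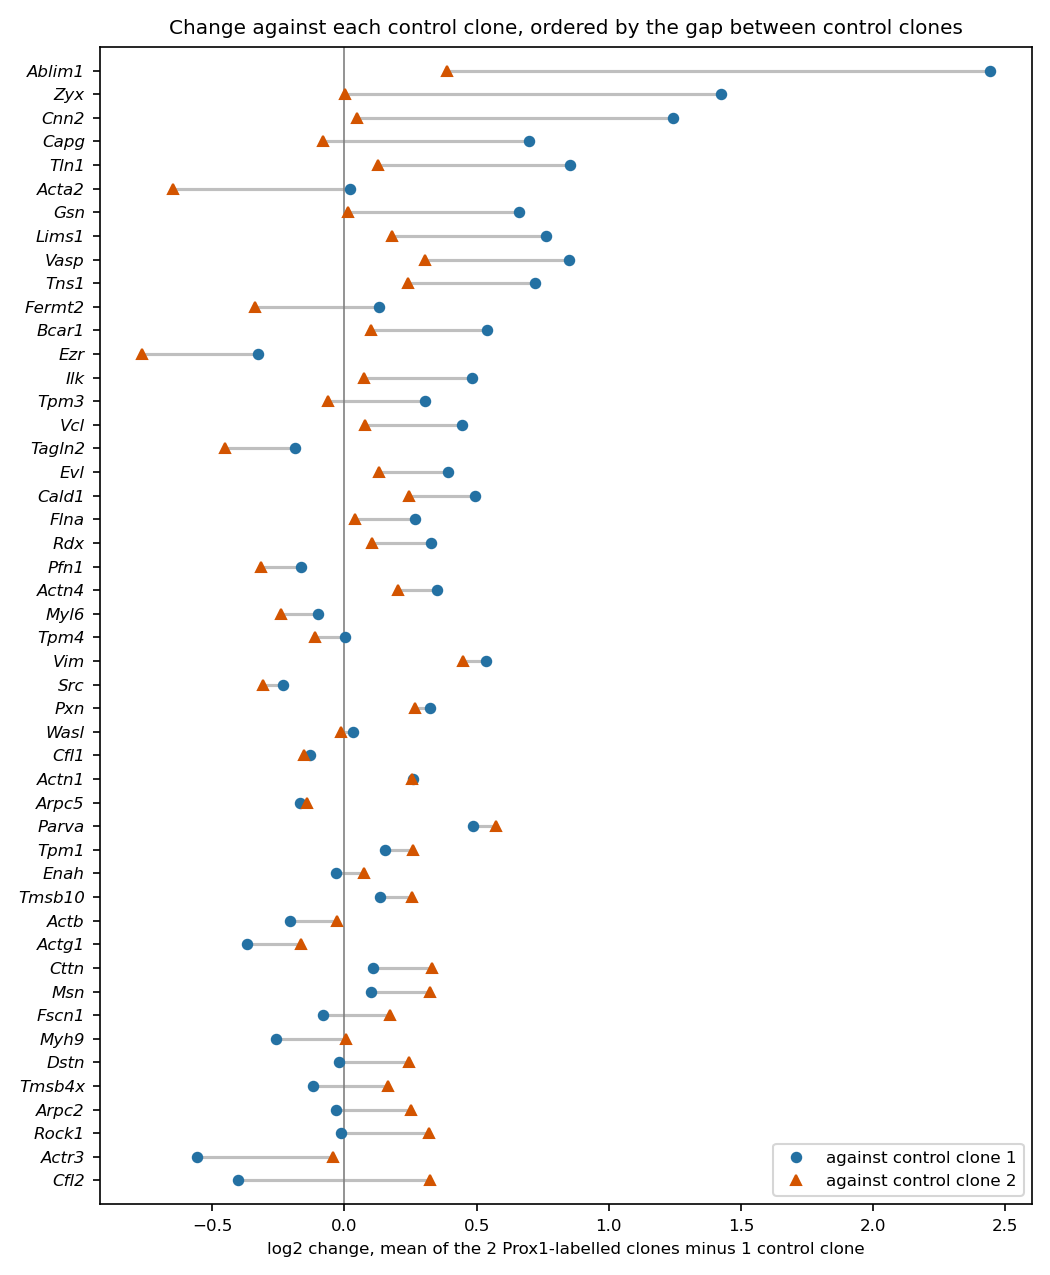
Log2 change of the 48 members tested (horizontal axis), taken as the mean of the 2 Prox1-labelled clones minus control clone 1 (circles) or minus control clone 2 (triangles), with genes ordered by the gap between the control clones. Ablim1, Zyx and Cnn2 at the top change by 1.24 to 2.44 against control clone 1 and by at most 0.39 against control clone 2, while the symbols of Vim, Pxn, Actn1 and Parva lie close together.

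Of the 53 members 31 had 2 or more probe sets tested. All of a gene's tested probe sets were positive for 18 of them and all negative for 5, and 8 were mixed: Actb, Fscn1, Tns1, Wasl, Actr3, Cfl1, Myh9 and Rock1. Over the 98 member probe sets tested, 14 were higher and 1 lower at an unadjusted p under 0.05, beside 8.65% and 5.88% of all probe sets tested, and the probe sets of a gene are not independent. The genes with several positive probe sets included Vim, Lims1, Parva, Actn1, Zyx, Pxn, Gsn and Cald1, and those with negative ones only were Src, Cfl2, Fermt2, Tagln2 and Ezr.

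**Figure D4:**
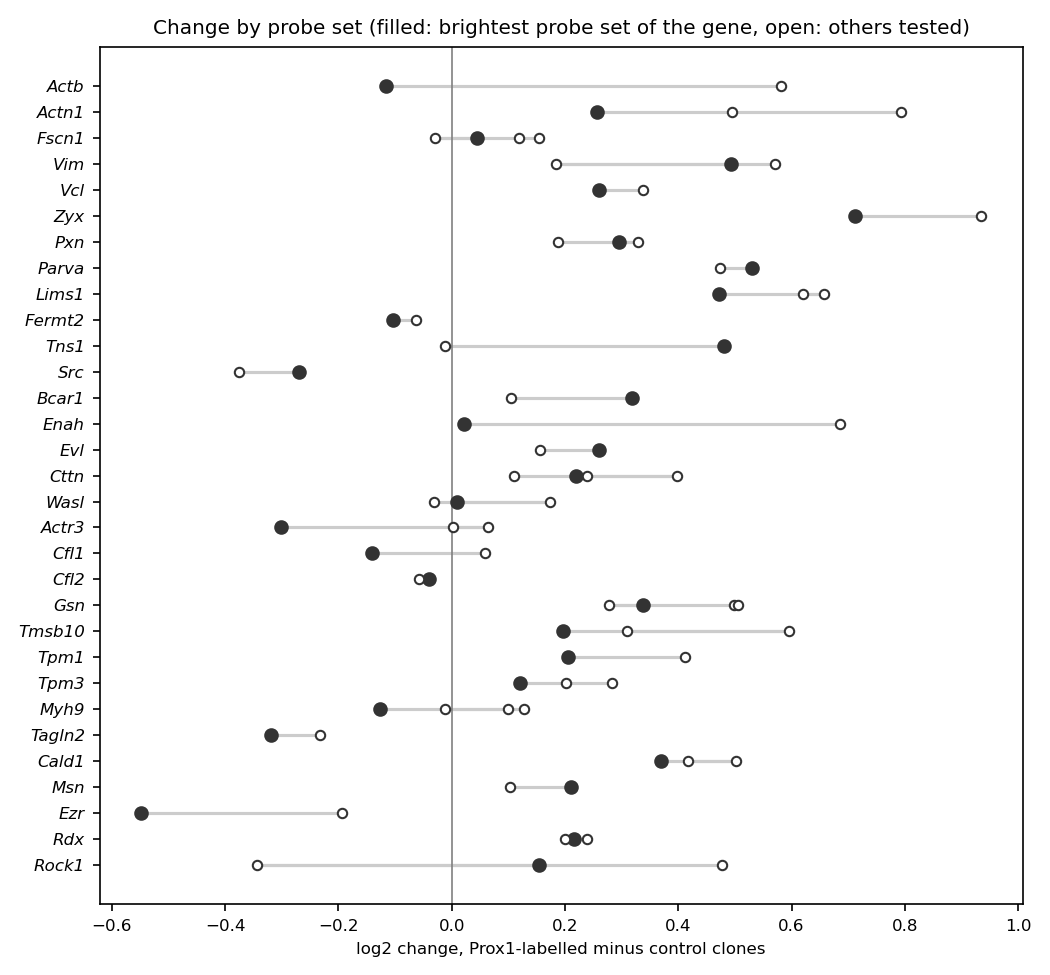
Log2 change of every probe set tested (horizontal axis) for the 31 members with at least 2, with the brightest of a gene filled and the others open. The probe sets of Actb and Rock1 lie on both sides of 0, from -0.12 to 0.58 and from -0.34 to 0.48, while those of Parva (0.47 and 0.53) and Rdx (0.20 to 0.24) nearly coincide.

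Other genes of the pathway were read from 2 further lists, and 0 of their members passed the threshold. Of 62 symbols listed for other actin nucleation, motor and capping genes, 45 had a probe set of their own and 38 were tested. Of these 38 genes 23 were positive, with a median of 0.14. At an unadjusted p under 0.05 there were 6 higher and 1 lower, beside 8.65% and 5.88% of all probe sets tested. Cap1, a cyclase-associated protein that recycles monomers from cofilin, went from 1275 and 1340.5 to 2388 and 2245 (log2 change 0.80 ± 0.18, adjusted p = 0.140), and its other probe set gave 0.94. Arpc5l, an isoform of the Arp2/3 subunit Arpc5, went the opposite way, from 4072 and 3889.6 to 2150.2 and 2609 (log2 change -0.74 ± 0.18, adjusted p = 0.165), with its other probe set at -0.55. Neither gene's groups overlapped. Without control clone 2 Cap1 (adjusted p = 0.0193) and Arpc5l (adjusted p = 0.0281) passed the threshold, in the fit where 9.87% of all probe sets did. Over all alternatives the adjusted p ran from 0.0193 to 0.588 for Cap1 and from 0.0281 to 0.817 for Arpc5l.

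From the list of serum response factor and its immediate targets 12 genes were tested. The list held 20 symbols, some of them older and newer names of 1 gene, and 16 had a probe set of their own. Of the 12 genes tested 5 were positive, with a median of -0.038. At an unadjusted p under 0.05 there were 0 higher and 1 lower, beside 8.65% and 5.88% of all probe sets tested. Srf itself read 503 and 439 for the controls and 311 and 228 for the Prox1-labelled pair (log2 change -0.72 ± 0.22, adjusted p = 0.207), with both Prox1-labelled clones below both control clones. Its dimmer probe set stood at -0.057, so its direction is not settled. Ccn2, a secreted matrix protein induced through this factor, read 1956 and 723 for the controls and 1044 and 669 for the Prox1-labelled pair (log2 change -0.49 ± 0.40, adjusted p = 0.627), with control clone 1 alone standing high. Its change was 0.20 without control clone 1 and -1.18 without control clone 2, where it passed the threshold (adjusted p = 0.0194, from 0.0194 to 0.988 over all alternatives).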

How the data were processed

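The authors deposited linear intensities for each probe set and array, made with MAS5, which summarises the probes of a probe set, per the submitters' processing notes. The version of MAS5 is not given in the sources used here. All 4 columns shared a trimmed mean (2% cut at both ends) of 500, and they were not normalized again. The analysis used log2(intensity + 47), with 47 the lower quartile of the deposited intensities. A probe set was tested if it exceeded the array median on 2 or more arrays, leaving out 64 Affymetrix controls. The comparison was a 2-sided linear model in limma (version 3.58.1, R 4.3.3), with a variance trend on intensity in eBayes and p-values adjusted by Benjamini-Hochberg over every tested probe set. A fit of this kind was run on simulated data, whose noise model was changed after a first outcome to a more favourable one, and no statement here rests on it. With 2 clones a group, exact permutation reaches no p below 0.333 and was not used. The number of arrays limits the precision.

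The members and lists were chosen with earlier results of these data known. Values were given for Prox1, for up to 3 members of each role group with the smallest unadjusted p and its brightest member, and for the 2 genes with the smallest p of each further list. A list of regulatory genes that was also fixed is not reported here. Other genes with values were chosen after these were seen. Sequences are from RefSeq, build GRCm38.p6. Alternatives covered the scaling, pseudocount, filter, variance model, clone number as a block, clones left out in turn and the choice of probe set.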

Additional observations from a re-analysis of the deposited data

How the results depend on the processing

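Over 11 alternatives other than leaving out a clone, 0 members passed the threshold each time, and the median log2 change of the members tested ran from 0.13 to 0.21. The count of probe sets past the threshold, 12, became 4 under quantile normalization, 0 without the filter (where 22626 were tested) and 7 with the robust variance model. With the clone number as a replicate block it was 110, and 0 members passed. The labels do not say that clone numbers pair the samples, and the deviations of clones with number 1 from their group means correlated at -0.0091 over probe sets. Leaving out a clone gave 42 to 1150 probe sets, 0 to 8 members, and a median from 0.088 to 0.13, and the log2 change of Prox1 ran from -0.18 to 0.083. Over the 48 members tested the log2 change turned sign in 8 cases with no clone left out. Median centring, which lowers every log2 change by the same amount, gave -0.023 for Enah, -0.023 for Tmsb4x and -0.035 for Wasl, and quantile normalization gave 0.0046 for Tpm4. Averaging in the dimmer probe sets gave 0.23 for Actb and 0.022 for Myh9. Without probe sets of suffix _s_at or _x_at another probe set stood for Tns1 (-0.012) and Cfl1 (0.059). On leaving out a clone it turned sign for 15 of the 48 members: Actb (-0.24 to 0.0044), Acta2 (-0.65 to 0.020), Fscn1 (-0.13 to 0.22), Fermt2 (-0.34 to 0.13), Enah (-0.030 to 0.075), Wasl (-0.012 to 0.032), Arpc2 (-0.033 to 0.25), Cfl2 (-0.40 to 0.32), Dstn (-0.12 to 0.34), Capg (-0.082 to 0.70), Tmsb4x (-0.12 to 0.16), Tpm3 (-0.063 to 0.30), Tpm4 (-0.11 to 0.00071), Myh9 (-0.26 to 0.0046) and Rock1 (-0.014 to 0.32). Of the other named genes Ccn2 (-1.18 to 0.20) turned too. Signal limits 2 members, which lay under the highest Bacillus control in all 4 arrays.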
